A study of Mus musculus with 16 samples.

Results

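Hlf, Cry1 and Nfil3 are clock-linked genes whose transcripts were measured in the kidneys of 4 Pept2 knockout mice against wild-type kidney RNA. They were taken from the clock and clock-output genes of the array because their knockout over wild-type ratios stood apart, so those ratios are given as a description with no test. All 3 had exactly 1 probe that names them alone, out of 20205 probes and 6191 genes that could be tested. The tested samples were right kidneys of 4 male Pept2-/- mice, aged 88 (±2) days, and the comparison RNA was 1 pool from 5 Pept2+/+ right kidneys, which carry no Pept2 deletion. Matings within a Pept2+/- line, kept on mixed C57BL/6 and 129Sv stock, gave all animals, which were killed between 8 and 10 in the morning, a window the submitters chose to limit circadian effects. Pept2 is Slc15a2, which encodes the proton-coupled peptide transporter of the proximal tubule. Each mouse was hybridised with the pool on 4 two-colour spotted cDNA arrays, 2 with the knockout RNA in channel 1 and 2 with it in channel 2, so 16 arrays stood for 4 animals.

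The circadian clock of mammalian cells is a transcriptional loop in which CLOCK and BMAL1 bind E-boxes and drive the Per and Cry genes, whose proteins shut CLOCK and BMAL1 off. Cry1 encodes a main repressor of that loop. HLF is an activator of the PAR bZIP family, together with DBP and TEF, and NFIL3, also known as E4BP4, is a bZIP repressor that competes with them for the same DNA element, the D-box. Many renal transporters and metabolic enzymes are known to follow a daily rhythm downstream of these factors.

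The promoters of the genes are shown for the known clock and signalling elements that they hold. By the RefSeq annotation of GRCm38.p6 the genes span chr11:90336535-90390917 (Hlf), chr10:85131700-85185054 (Cry1) and chr13:52967209-52982878 (Nfil3), and where each probe lies within its transcript was not analysed here. The windows run from 250 bases before to 50 bases after an annotated start (RefSeq, GRCm38.p6), all read 5′ to 3′ on the minus strand, at chr11:90390868-90391167 for Hlf, chr10:85185005-85185304 for Cry1 and chr13:52980990-52981289 for Nfil3. Capitals mark TGACGTCA, the cyclic AMP response element, in Hlf, CACGTG, the E-box, in Cry1, and TGACCTA in Nfil3, which is the reverse strand of TAGGTCA, the core of the element bound by ROR and REV-ERB receptors.
Hlf: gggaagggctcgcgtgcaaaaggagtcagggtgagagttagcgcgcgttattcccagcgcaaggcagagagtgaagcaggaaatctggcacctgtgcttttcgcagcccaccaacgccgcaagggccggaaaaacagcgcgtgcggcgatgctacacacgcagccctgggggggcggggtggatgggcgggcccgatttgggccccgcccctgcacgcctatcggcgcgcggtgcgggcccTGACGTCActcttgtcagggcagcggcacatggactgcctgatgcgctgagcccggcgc
Cry1: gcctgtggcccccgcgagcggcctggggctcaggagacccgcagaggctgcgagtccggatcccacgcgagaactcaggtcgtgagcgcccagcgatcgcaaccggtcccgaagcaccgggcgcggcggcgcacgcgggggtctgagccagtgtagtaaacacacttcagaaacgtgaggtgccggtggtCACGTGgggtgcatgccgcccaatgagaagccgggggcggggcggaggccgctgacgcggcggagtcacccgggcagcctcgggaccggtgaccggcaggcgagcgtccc
Nfil3: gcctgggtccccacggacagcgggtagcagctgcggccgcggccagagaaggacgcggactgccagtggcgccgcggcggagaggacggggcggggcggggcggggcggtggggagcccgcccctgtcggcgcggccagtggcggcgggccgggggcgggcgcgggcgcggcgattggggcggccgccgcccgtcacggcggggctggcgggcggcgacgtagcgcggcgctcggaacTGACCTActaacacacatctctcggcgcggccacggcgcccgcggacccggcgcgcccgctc

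Both strands were searched, and the marked elements do not overlap one another. The Cry1 E-box begins 60 bases before the start, the Hlf element 9 bases before it and the Nfil3 element 12 bases before it. The starts used for Hlf and Cry1 lie at the upstream end of the gene span, and that for Nfil3 lies inside it. The upstream end of the Nfil3 span was not searched. Of 32851 windows of this length, 7.15% hold the E-box, 1.79% TGACGTCA and 2.61% TAGGTCA. Neither form of the D-box searched, TTATGTAA (in 0.938% of windows) or TTACGTAA (0.119%), is among the letters of these 3 windows. The shorter TGACG, part of the cyclic AMP response element, is in all 3 windows and in 20.8% of all windows, and in Hlf its matches lie within TGACGTCA. The matches describe sequence and were not tied to any measurement here.

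The sources used here do not say which channel is the numerator of a ratio. Slc15a2 settled the likely direction: read as knockout over wild type, it stood at a log2 ratio of -2.51 (SE 0.16, n = 4 mice) and below 0 on all 16 arrays. Under the opposite reading every sign given here for a ratio of knockout to wild type would be turned. Arrays carried a value for 50.2% to 91.1% of the probes, and the median SE of a gene over 4 mice was 0.0496 on the log2 scale, with the number of mice and arrays limiting precision. The wild-type RNA was hybridised as a pool only, so no SE here includes the spread between wild-type kidneys. In whole kidney RNA, fewer cells of a type and less transcript per cell cannot be told apart.

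Hlf stood above the wild-type pool in every knockout kidney. Its log2 ratio was 0.28, 0.17, 0.57 and 0.15 in mice 1 to 4, with a mean of 0.29 (SE 0.10, n = 4), or 1.23-fold. Mouse 3 stood highest, and all 4 mice lay above 0, as they did for 703 of 6191 genes (11.4%). Over the 16 arrays the ratio ran from -0.001 through a median of 0.31 to 0.76, and 15 of 16 arrays lay above 0. Of 2826 genes with a value on every array, 110 (3.89%) had at most 1 array on the minority side of 0, but Hlf was chosen on this contrast and nothing is read from that share. By the size of the ratio, which holds under either reading of its direction, Hlf ranked 88 of 6191 genes.

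The Hlf ratio was above 0 in both dye orientations of all 4 mice, and 335 of 6191 genes (5.41%) kept 1 sign in this way. It averaged 0.25 with knockout RNA in channel 1 and 0.33 with it in channel 2, a difference of -0.08 (SE 0.05, n = 4 mice; limma adjusted p = 0.568). Without mouse 3 the mean was 0.20 (SE 0.04). Mouse 3 was also the kidney with the highest ratio of Svs5, a seminal vesicle protein gene and the 1 measured gene of 7 seminal vesicle markers, at 4.94, while Svs5 stood at 1.09 in mouse 4, where Hlf was lowest, and at 0.21 and -0.09 in mice 1 and 2. Its part in the Hlf value was not tested.

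Nfil3, the D-box repressor, stood on the other side of 0. Its log2 ratio was -0.34, -0.07, -0.27 and -0.08 in mice 1 to 4, with a mean of -0.19 (SE 0.07, n = 4), or 1.14-fold lower. All 4 mice lay below 0, as they did for 885 of 6191 genes (14.3%), mice 1 and 3 farther from it than mice 2 and 4. Over 15 arrays (array 3 of mouse 3 was blank) the ratio ran from -0.42 through a median of -0.14 to 0.09, and 13 of 15 arrays lay below 0. With knockout RNA in channel 1 the mean was -0.13 and in channel 2 it was -0.25, a difference of 0.12 (SE 0.07; limma adjusted p = 0.452). In mouse 4 the orientations had opposite signs, 0.01 in channel 1 and -0.18 in channel 2.

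Nfil3 is also known for its role in natural killer and other lymphoid cells. Of 25 leukocyte markers 13 were tested, 6 above 0 and 7 below it, with medians of -0.03, 0.03, 0.06 and -0.02 in mice 1 to 4. The low Nfil3 of mouse 1 stood beside a leukocyte median of -0.03 and that of mouse 3 beside one of 0.06; the part of leukocytes in the Nfil3 value was not tested.

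**Figure D1:**
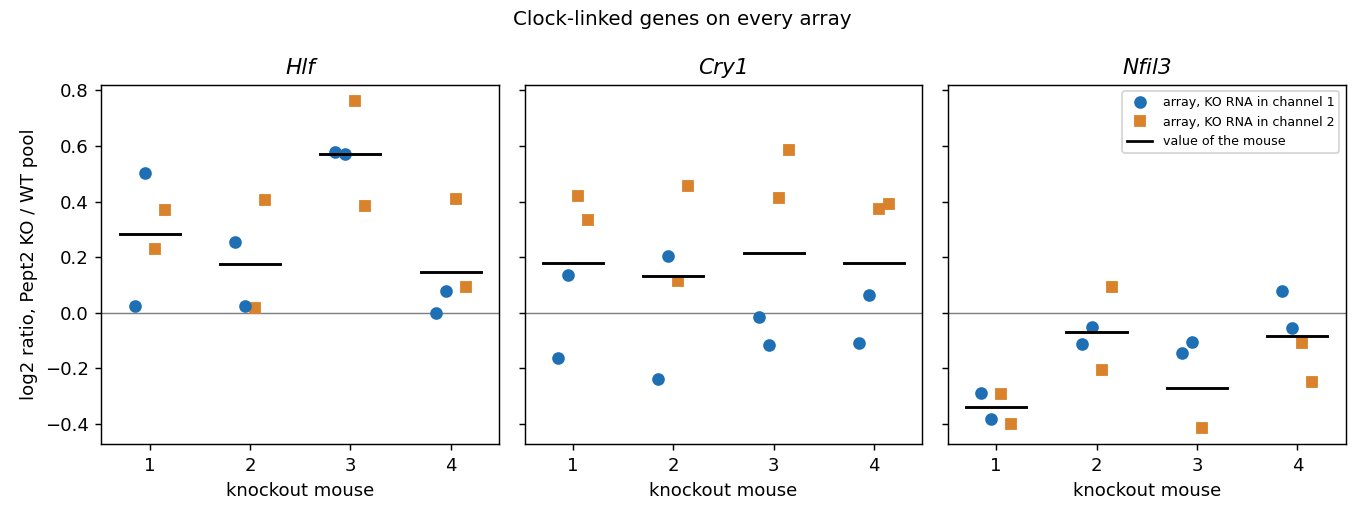
Log2 ratio of Pept2 knockout over the wild-type pool (vertical axis) for Hlf, Cry1 and Nfil3 on every array, by knockout mouse (horizontal axis). Circles are arrays with knockout RNA in channel 1, squares arrays with it in channel 2, and black lines the value of the mouse, the mean of its 2 orientation means. Hlf lies above 0 on 15 of 16 arrays, Nfil3 below 0 on 13 of 15, and the circles of Cry1 lie around 0 while its squares all lie above it.

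Of the 3 genes, Cry1 had the smallest spread between mice and the largest difference between dye orientations. By mouse it stood at 0.18, 0.13, 0.22 and 0.18, with a mean of 0.18 (SE 0.02, n = 4), or 1.13-fold. Each of these means joins unlike orientations. With knockout RNA in channel 1 the mice stood at -0.02, -0.02, -0.07 and -0.02, and with it in channel 2 at 0.38, 0.28, 0.50 and 0.38. All 8 arrays of the second kind lay above 0 (0.11 to 0.59, median 0.40), against 3 of 8 arrays of the first kind (-0.24 to 0.20, median -0.06). The orientations overlapped, since the lowest channel 2 array (0.114, mouse 2) lay below a channel 1 array of mouse 1 (0.134) and one of mouse 2 (0.205). Of 2826 genes with values on every array, 20 (0.708%) had orientations that did not overlap.

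The difference between orientations is not the ratio on which the genes were chosen, and it was fitted over all genes. For Cry1 it was -0.42 (SE 0.05, n = 4 mice, negative in all 4), which ranked 24 of 6191 by p, at an unadjusted p of 0.000697 and an adjusted p of 0.159 in limma. In that test 0 genes (0%) passed the adjusted threshold of 0.05 and 1208 were at an unadjusted p under 0.05. When the 16 arrays were taken as measurements, a fit added after the data were seen, 128 genes (2.07%) passed, 70 of them lower with knockout RNA in channel 1 (1.13%) and 58 higher (0.937%). Cry1 was among the lower ones at -0.42 (SE 0.08, limma adjusted p = 0.0298, rank 16). Hlf and Nfil3 did not pass in that fit (adjusted p = 0.628 and 0.417). The Cry1 mean of 0.18 therefore stands for 0.39 in channel 2 and -0.03 in channel 1, and its small SE over mice does not include this difference.

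**Figure D2:**
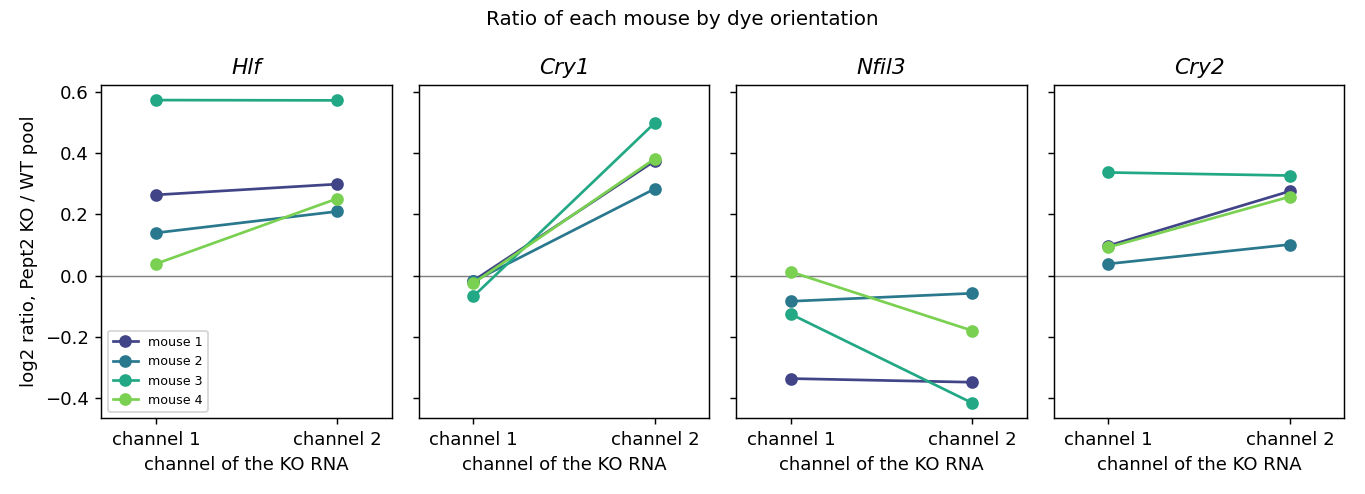
Mean log2 ratio of knockout over the wild-type pool (vertical axis) of each mouse with the knockout RNA in channel 1 or channel 2 (horizontal axis), for Hlf, Cry1, Nfil3 and the Cry1 paralog Cry2. Lines join the orientations of 1 mouse. The Cry1 lines all climb, from near 0 in channel 1 to between 0.28 and 0.50 in channel 2, and those of the other genes stay closer to level.

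Hlf and Nfil3 can be set against each other on the same array, where the scaling of the array cancels. For each mouse, the Hlf value minus the Nfil3 value was 0.623, 0.245, 0.842 and 0.229 on the log2 scale in mice 1 to 4. Their mean was 0.485 (SE 0.15, n = 4), a 1.4-fold shift of the ratio between activator and repressor transcripts relative to the pool. In mouse 3 these values do not rest on the same arrays, since Nfil3 was blank on array 3 and Hlf was not. On the 15 arrays with both genes the difference was above 0 on 14, from -0.08 through a median of 0.37 to 1.18. The mean of the mouse differences was 0.39 with knockout RNA in channel 1 and 0.58 with it in channel 2, where the blank array falls. Mice 1 and 3 stood higher than mice 2 and 4. Cry1 minus Nfil3, taken by mouse in the same way, averaged 0.37 (SE 0.08) but was 0.102 in channel 1 and 0.635 in channel 2. Because all 3 genes were chosen for their ratios, these differences carry no test.

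**Figure D3:**
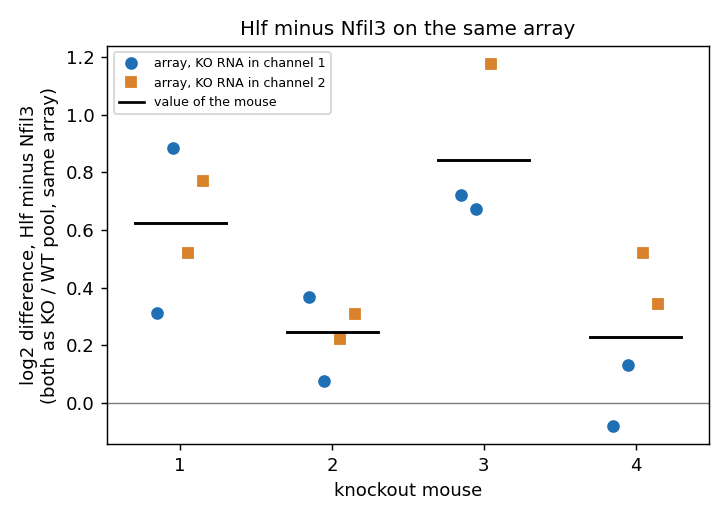
Log2 difference of Hlf minus Nfil3 on the same array, both as knockout over the wild-type pool (vertical axis), by knockout mouse (horizontal axis). Circles and squares are arrays with knockout RNA in channel 1 and channel 2. Black lines are the Hlf value of each mouse minus its Nfil3 value, 0.623, 0.245, 0.842 and 0.229. The line of mouse 3 also takes in the Hlf value of array 3, on which Nfil3 was blank. One array, of mouse 4, lies below 0.

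Over all genes, 13 of 6191 (0.21%) passed the adjusted threshold against the pool in limma, 4 of them higher (0.0646%) and 9 lower (0.145%). Hlf, Cry1 and Nfil3 were not among them, and since they were chosen on these ratios nothing is read from that. With 1 mouse left out, 1 to 6 genes passed. The pool cancels between mice, so the difference between animals was tested separately with a moderated F test over the arrays, which 161 of 6191 genes (2.6%) passed (41 to 138 with 1 mouse left out). Hlf did not pass (F = 4.74, limma-moderated p = 0.0137, adjusted p = 0.187), nor did Nfil3 (F = 3.49, p = 0.0399, adjusted p = 0.328). Cry1 ranked 5862 of 6191 (F = 0.176, adjusted p = 0.962). The residual SD between arrays of a mouse was 0.185 for Hlf, 0.159 for Cry1 and 0.115 for Nfil3, which gave an SE of 0.093 for the Hlf value of a mouse from its arrays. No pair of mice was tested on its own.

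Across arrays, Hlf and Nfil3 had a Pearson r of -0.33 (15 arrays), Hlf and Cry1 0.26 (16 arrays) and Cry1 and Nfil3 -0.25 (15 arrays). These arrays share 1 pool, 2 orientations and 4 animals, so the r values describe this set of arrays only. Among 2825 other genes with a value on every array, the pattern most like that of Hlf was Sfxn2, a mitochondrial amino acid carrier (r = 0.82), before Washc2 (0.735) and the hydrolase gene Bphl (0.73), and the most opposed was Mylk, the myosin light chain kinase (-0.81). Hlf stood at 0.29 and Sfxn2 at 0.11 (SE 0.08).

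For Cry1 the most similar genes were Zfp579 (r = 0.94), Washc1 (0.845) and the repressor gene Cic (0.81), and the most opposed was Tspan13 (-0.87). These r values include the step between orientations. None of the 4 passed the dye test by mouse (limma adjusted p = 0.159 to 0.189), which 0 of 6191 genes passed. Zfp579 stood at -0.14 in channel 1 and 0.27 in channel 2, and Tspan13 at -0.12 and -0.46. With the orientation means removed the r values were 0.815 for Zfp579, 0.69 for Washc1, 0.56 for Cic and -0.63 for Tspan13. The genes most like Nfil3, over 15 arrays and 2826 genes, were Ppard, a nuclear receptor of fatty acid metabolism (r = 0.95), Sncg (0.795) and the steroid dehydrogenase Hsd3b3 (0.74), and Phax was most opposed (-0.77). Ppard stood at -0.10 (SE 0.15), with a wider spread between mice than Nfil3.

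Of the other D-box factors, Tef, an activator like Hlf, stood at -0.03 (limma adjusted p = 0.741), with -0.04, 0.02, 0.04 and -0.16 in mice 1 to 4 from its tested probe. Its other probe had values on 13 arrays, too few in mouse 2 to be tested. That probe stood at 0.06, -0.14 and -0.11 in mice 1, 3 and 4, with the opposite sign in mice 1 and 3. Dbp, the third activator, had values on 10 arrays, too few in mouse 1 to be tested, and stood at -0.03, -0.09 and -0.06 in mice 2 to 4. By its tested probe Tef lay on both sides of the pool, and Dbp lay below it in mice 2 to 4. Over all genes, 703 of 6191 (11.4%) lay above 0 in all 4 mice. Hlf was chosen on this ratio, so nothing is read from the contrast. The difference between Hlf and these relatives was not tested.

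Among 16 core clock genes, 8 had a probe of their own and 5 were tested. None was past the threshold, which 13 of 6191 genes (0.21%) passed in all. Cry2, the second cryptochrome repressor, stood at 0.19 (SE 0.05, limma adjusted p = 0.172), with 0.19, 0.07, 0.33 and 0.18 in mice 1 to 4. Cry2 was above 0 on all 13 arrays that measured it, and its orientation means were 0.14 in channel 1 and 0.24 in channel 2. Cross-hybridisation between these paralogs on spotted cDNA was not tested. Per1, a light and glucocorticoid inducible repressor, stood at 0.11 (SE 0.07, adjusted p = 0.357), with mouse 1 highest at 0.32 and the others between 0.02 and 0.07.

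The other tested core genes, Rora and Bhlhe40, averaged below 0. Rora, an activator that binds the ROR element, stood at -0.06 (adjusted p = 0.525) with its 2 probes at -0.06 and -0.07, and Bhlhe40, a repressor at E-boxes, at -0.08 (adjusted p = 0.576), above the pool in mouse 1 (0.18) and below it in the others. Nr1d1, which encodes REV-ERB alpha, had values on 6 arrays, Nr1d2 on 11 and Per3 on 1, so they were not tested. The remaining 8 core genes, among them Clock, Arntl and Per2, were not analysed here. Over core clock genes and D-box factors together, 8 genes were tested, 4 above 0 and 4 below it. Their median was 0.04, against -0.004 and 48.2% above 0 over all tested genes. Without the 3 chosen genes 2 of 5 lay above 0, with a median of -0.03. When mouse 1 was left out, 10 genes could be tested, and the median of -0.031 is over those, not over the same 8.

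Genes downstream of the clock or of PAR bZIP factors had a probe of their own for 14 of 28 listed, and 12 were tested. Of these, 8 lay above 0 and 4 below it (median 0.12), against 48.2% above 0 over all tested genes. None passed the threshold, which 13 of 6191 genes (0.21%) passed in all. Counting Hlf itself, 6 of the 12 lay above 0 in all 4 mice, against 703 of 6191 genes (11.4%), but the list was written with earlier results for some of its genes known, and the count supports nothing. Pdxk, the pyridoxal kinase gene that PAR bZIP factors activate in mouse brain, had the highest ratio of the list, at 0.31 (SE 0.05, limma adjusted p = 0.0772). It stood at 0.37, 0.28, 0.21 and 0.41 in mice 1 to 4 and above 0 on all 15 arrays that measured it. Its order of mice differed from that of Hlf, with mouse 3 lowest.

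Acot3, an acyl-CoA thioesterase gene, stood at 0.26 (SE 0.04, adjusted p = 0.102), with both probes alike at 0.245 and 0.278. Ppara, the fatty acid receptor of the same pathway, stood at 0.17 (SE 0.05, adjusted p = 0.185), with its probes at 0.12 and 0.21 and the first near 0 in mice 1 and 2. Aqp2, the collecting duct water channel, stood at 0.27 (SE 0.07, adjusted p = 0.145), but at 0.47 in channel 1 and 0.07 in channel 2. Tspan4 stood at 0.13. Alas1, the first enzyme of heme synthesis and a PAR bZIP target in mouse liver, lay above the pool in mouse 1 (0.41) but below it in mice 2, 3 and 4 (-0.08, -0.46 and -0.29). It was the 1 output gene that differed between mice in the moderated F test (limma adjusted p = 0.00323), which 161 of 6191 genes (2.6%) passed in all. The cell cycle inhibitor Cdkn1a stood at -0.16 and the deubiquitinase Usp2 at -0.09.

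**Figure D4:**
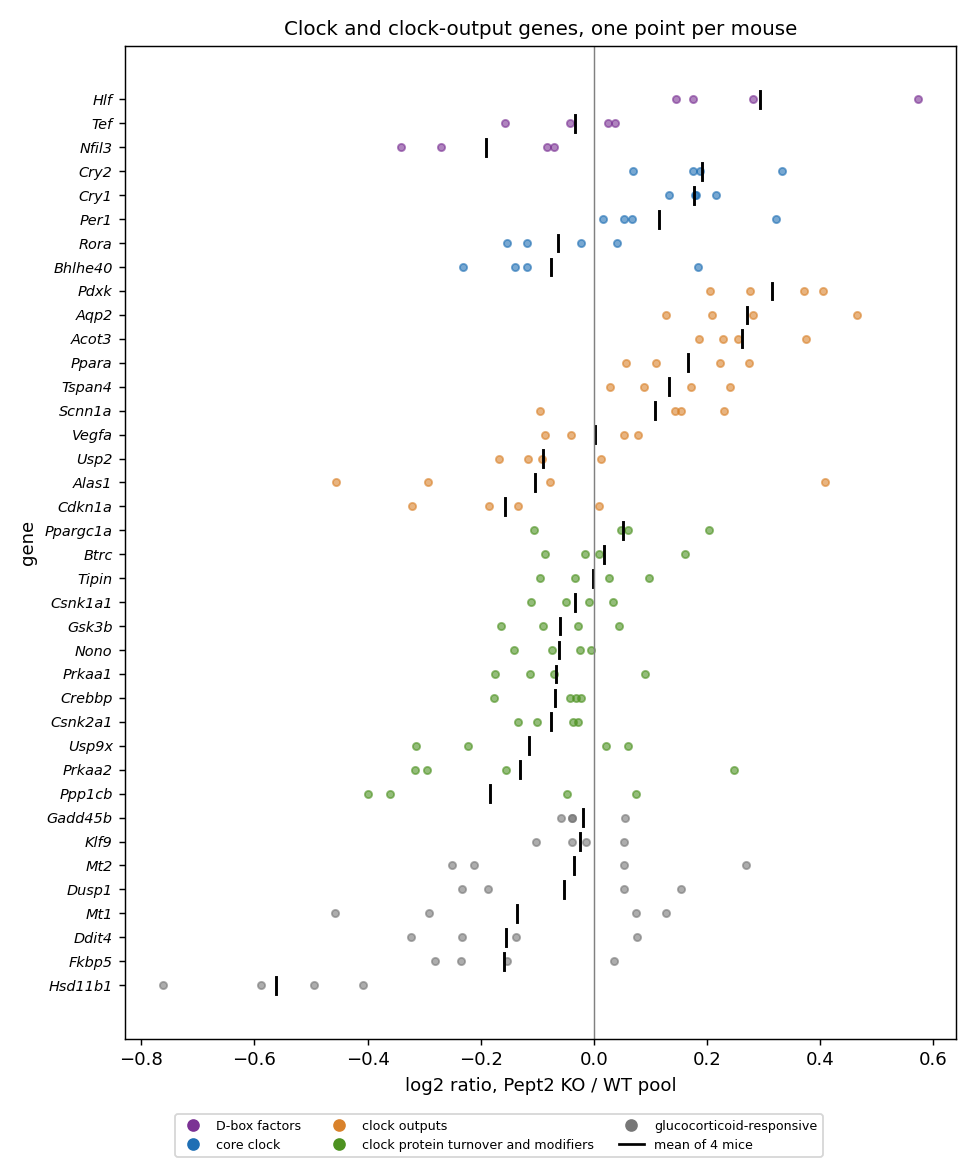
Log2 ratio of knockout over the wild-type pool (horizontal axis) of each tested listed gene (vertical axis), 1 point per mouse. The genes are those of the D-box, core clock, output, clock protein and glucocorticoid lists. A black line marks the mean of 4 mice, and colours mark the lists. Hlf, Cry1, Cry2, Per1, Pdxk, Aqp2, Acot3, Ppara and Tspan4 have all 4 points above 0, and Nfil3, Nono, Csnk2a1, Crebbp and Hsd11b1 all 4 below it. These are 9 and 5 of 38 genes, against 703 (11.4%) and 885 (14.3%) of all 6191 tested genes. Hlf, Cry1 and Nfil3 were chosen on this ratio, and nothing is read from these counts. For Csnk2a1 and Nono the points are means of unlike probes, at 0.007 and -0.157 for Csnk2a1 and -0.005 and -0.118 for Nono.

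Enzymes and cofactors that act on clock proteins lay mostly just below 0. Of 28 listed genes 13 were tested, 2 above 0 and 11 below it (median -0.07), against 48.2% above 0 over all tested genes. None passed the threshold, which 13 of 6191 genes (0.21%) passed in all. None differed between mice past it either, as 161 of 6191 genes (2.6%) did. The share of the list above 0 was not tested. The lowest was Ppp1cb, a phosphatase subunit, at -0.18 (limma adjusted p = 0.304), at 0.07, -0.05, -0.36 and -0.40 in mice 1 to 4. The kinase genes Csnk1a1 and Gsk3b stood at -0.03 and -0.06. The medians of this list were 0.01, -0.02, -0.11 and -0.10 in mice 1 to 4.

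Glucocorticoid-responsive genes were described because glucocorticoids set peripheral clocks. Of 17 listed 9 were tested, 1 above 0 and 8 below it (median -0.05), with medians of 0.08, -0.04, -0.23 and -0.15 in mice 1 to 4. Over all tested genes 48.2% lay above 0. Klf9, Gadd45b, Mt2, Mt1 and Dusp1, counted below 0, lay less than 1 SE from it. Hsd11b1, which regenerates active glucocorticoid, was lower in knockout kidney at -0.56 (limma adjusted p = 0.0149). It was the 1 member past the threshold, which 13 of 6191 genes (0.21%) passed in all. Fkbp5 stood at -0.16, Ddit4 at -0.15 and Mt1 at -0.14, and the positive member was Per1. Of 13 listed kidney markers 7 had a probe of their own, and all 7 had values on all 16 arrays. Of these 7, 5 lay above 0 and 2 below it (median 0.033), against 48.2% above 0 over all tested genes. Slc22a8, an organic anion transporter of the proximal tubule, was higher in knockout kidney at 0.48 (limma adjusted p = 0.0149). The markers Lrp2, Aqp1 and Miox stood at 0.02, 0.03 and 0.16 and Kap at -0.10, none of them past the threshold. Umod, a marker of the thick ascending limb, differed between mice (moderated F, limma adjusted p = 0.0122), as did 161 of 6191 genes (2.6%). It stood at -0.14, -0.33, 0.19 and 0.27 in mice 1 to 4. The part of these shifts in the values of Hlf, Cry1 and Nfil3 was not tested.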

How the data were processed

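Kidney RNA of 4 Pept2 knockout mice and 1 wild-type pool was compared on 16 two-colour arrays. Per the labels' protocols, slides were scanned on a GenePix 4000A, quantified in GenePix Pro 3.0, and background-subtracted mean intensities were scaled by the authors to a median ratio of 1 on every array. Each deposited value is a log2 ratio, as read from the values themselves: base 2 matched 46.5% of the distances among the 10 commonest values per array to ratios of integers no larger than 20 (tolerance 2e-06), and bases e and 10 matched 0%. How cells came to be blank was not described in those sources, and dim spots could not be filtered because intensities were not analysed here.

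Each array was centred on its median and signed to knockout over wild type, with channel 1 as the numerator. Per mouse, the 2 orientation means were averaged, and arrays counted as technical replicates (n = 4 mice). Probes with a value in both orientations of every mouse were tested (10804), and a gene was the mean of its probes that name 1 gene. A single gene symbol was listed for 11723 of 20205 probes, more than 1 for 806 and no symbol for 7676, and 11590 were matched by gene identifier to the GRCm38.p6 gene table, which changed no symbol. Ratios and orientation differences were tested against 0, two-sided, with limma 3.58.1 in R 4.3.3, with Benjamini-Hochberg adjustment over all genes and a threshold of 0.05. Differences between mice used a moderated F test that also held the dye orientation. An SE is the SD over 4 mice divided by the square root of their number. The tests of the ratio, of the difference between mice and of dye orientation by mouse were checked on simulated ratios that kept the observed blanks, and the array-level dye fit was not. Named genes were Hlf, Cry1 and Nfil3, the listed genes, Slc15a2, and per member the 3 genes with the highest and the 1 with the lowest Pearson r over arrays. The members and lists were chosen with earlier results of these data known. Alternatives changed the centring, scaling, probe filter, orientation, arrays and mice.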

Additional observations from a re-analysis of the deposited data

Results flagged for a closer look

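Of 65 genes and differences looked at for a mouse far from the others, 2 had a mouse whose gap to the nearest other exceeded Dixon's critical share of the range for 4 samples, and chance flags about 1 in 20. Crebbp, a coactivator of CLOCK and BMAL1, was lowest in mouse 1 (-0.176), with mice 2, 3 and 4 at -0.03, -0.02 and -0.04. Gadd45b, a stress gene, was highest in mouse 4 (0.0557), with mice 1, 2 and 3 at -0.06, -0.04 and -0.04. These values are means of 2 unlike probes, and neither probe was highest in mouse 4. In mice 1 to 4 the first stood at -0.06, -0.169, 0.132 and 0.102, and the second at -0.055, 0.091, -0.21 and 0.01. Hlf, Cry1 and Nfil3 were not among the flagged genes.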

How the results depend on the processing

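Hlf kept its sign in 14 alternatives (0.20 without mouse 3 to 0.34 without mouse 4), Nfil3 in 12 and Hlf minus Nfil3 in 12, each within 1 SD of its main value. Some of these outcomes were fixed in advance. Hlf and Cry1 have 1 probe each and no blank, so the probe filters, 1 probe per gene and plain array means return their main values. For Nfil3, 1 probe per gene and the filter of 1 value or more in each mouse do the same. The genes were chosen on these ratios, and the counts support nothing. Nfil3 has a blank array, so probes with all 16 arrays and arrays 3 and 4 alone gave it no value. Cry1 turned to -0.031 with knockout RNA in channel 1 only and stood at 0.385 in channel 2 only, 0.098 on arrays 1 and 2, and 0.256 on arrays 3 and 4. In the other 10 alternatives it stayed within 1 SD.

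The 13 genes past the threshold against the pool became 40 for probes with all 16 arrays, 2 for probes with 1 value or more in each mouse, 1 in channel 2 only, 4 on arrays 1 and 2, 8 on arrays 3 and 4, 467 with 16 arrays and the mouse as a random block (Hlf and Nfil3 among them, Cry1 not, from which nothing is read since they were chosen on these ratios), and 1 to 6 without 1 mouse (3, 1, 6 and 5 without mice 1, 2, 3 and 4). The 161 genes that differed between mice became 41 to 138 without 1 mouse (41 without mouse 3, 42 without mouse 1, 71 without mouse 2). The 0 genes past the dye test became 1 with scaled arrays, 104 for probes with all 16 arrays and 128 in the array-level fit added later. Of the 8 clock genes, 4 above 0 became 2 of 5 for probes with all 16 arrays, 2 of 6 on arrays 1 and 2, and 2 of 5 on arrays 3 and 4. Their median of 0.04 became -0.034, -0.035 and -0.023 there, -0.074 in channel 2 only, and -0.031 to 0.069 without 1 mouse (-0.031 without mouse 1). These settings tested 5 to 10 clock genes, and the causes of the shifts were not tested. The blanks and the 4 mice limit what the arrays can show for Dbp, Nr1d1, Nr1d2 and Per3.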

Other observations

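In the array-level fit of dye orientation, Cry1 and Crebbp were the pathway or marker genes past the threshold, beside 128 of 6191 genes (2.07%) in all. Crebbp stood at -0.23 with knockout RNA in channel 1 and 0.09 with it in channel 2 (limma adjusted p = 0.0412). It did not pass in the limma test by mouse (adjusted p = 0.159), which 0 of 6191 genes passed.

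The E-box CACGTG is in a promoter window of 9 of 32 tested genes with a window (28.1%), and in that of 8.09% of 27025 genes. The 32 genes come from the core clock, D-box, output, clock protein and glucocorticoid lists together. The 9 are Cry1, Per1, Tef, Pdxk, Aqp2, Tspan4, Dusp1, Fkbp5 and Gadd45b. Of these, Dusp1, Fkbp5 and Gadd45b are on the glucocorticoid list only. This describes the lists and was not tested.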
